A study of Mus musculus with 20 samples.

Results

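Collagens are the triple-helical proteins of the extracellular matrix, and each chain of the helix has its own gene. Type 4 collagen forms the sheet-like network of basement membranes, which endothelial cells build around every vessel, and types 15 and 18 sit in the zone where that membrane meets the matrix. Fibrillar types 1, 3 and 5 form the fibres of connective tissue and type 6 forms beaded microfibrils next to cells, and both are best known as products of fibroblasts and mural cells.

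The collagen gene family was taken here as every protein-coding gene whose symbol is Col, a number, a and a number, which gave 44 genes of the 46983 gene IDs in the tables. Of these, 8 belong to the basement membrane types (4, 15 and 18), 6 to the fibrillar types (1, 3 and 5), 6 to type 6 and 24 to all other types. Their levels were read in 20 bulk RNA-seq libraries of CD31-positive cells. CD31, encoded by Pecam1, marks the endothelial surface, and the cells were enriched with beads and sorted from tumours grown from E0771, a mammary carcinoma line of the mouse. The line's cells were placed in the mammary fat pad of each host, and the tumour was removed at a volume of 500 mm3.

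All hosts were C57BL/6J mice and differed in genetic background. The submitters class 3 backgrounds as deficient in CD4+ T cells: TCRKO (3 libraries), CD4KO (3) and Tie2Cre_H2Abf (4), which carries Tie2Cre with a floxed H2-Ab allele. The other 3 are classed as competent: Tie2Cre without the floxed allele (3), CD8KO (3) and WT (4). Tie2Cre is active in endothelial and in blood cells, so the floxed allele is not removed in endothelial cells alone. The labels do not say whether the libraries of a background come from different animals, and the p-values therefore describe the spread among these libraries only. In sorted bulk RNA, fewer cells of a type and less RNA per cell cannot be told apart. Age and sex of the hosts are not given in the sources used here.

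Library totals ran between 1543880 and 11478932 counts, with a median of 7.53e+06, and 12.8% to 81.0% of the counts fell on protein-coding genes. Collagens made up 0.139% to 2.15% of the protein-coding counts. WT_9771 and Tie2Cre_9501 stood apart: they have the 2 smallest totals, and Gm10800, Gm26870, Gm10801 and Gm21738, 4 gene models on satellite repeats, took 45.9% and 19.3% of their counts, against at most 2.46% elsewhere. These 2 are called satellite-rich, and each held a count for 37 of the 44 collagens, against 10 to 34 in the other libraries. All 15 endothelial markers were detected in each background, and their summed level was 2728 to 9461 CPM (library-scaled counts, with the TMM factors of edgeR). The 12 macrophage genes were also detected in each background and summed to 93.9 to 776 CPM. CD8KO_9752 stood apart in another way. Its protein-coding share, 81.0%, was the highest, with 51.2% next, and so was its TMM factor, 3.69, with 1.77 next. Its CPM values rest on that factor. H2-Ab1 had 0.712 to 6.37 CPM in Tie2Cre_H2Abf libraries, against 25.3 to 96.2 CPM in Tie2Cre libraries. Cd8a went against the label of 1 background: it had 39.0 to 69.8 CPM in the libraries labelled CD8KO, against 0 to 2.46 CPM in WT libraries. T cell genes are scarce in this sort, and Cd4 (4.22 to 15.7 CPM in CD4KO, 0.379 to 15.6 CPM in WT) and Trac (17 counts in all TCRKO libraries, 1 in all WT libraries) do not check the other labels.

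The type 4 pair, which leads the family, has a known arrangement in the genome. Col4a1 and Col4a2 encode the chains of the most widespread type 4 collagen and lie head to head on mouse chromosome 8. The RefSeq promoter windows below (build GRCm38.p6, 250 bases before to 50 after each start, each read 5′ to 3′ on its gene's strand) show this: Col4a1 at chr8:11312777-11313076 on the minus strand and Col4a2 at chr8:11312555-11312854 on the plus strand. The capitals mark the 78 bases that both windows share, chr8:11312777-11312854, and they are reverse complements of each other.
Col4a1: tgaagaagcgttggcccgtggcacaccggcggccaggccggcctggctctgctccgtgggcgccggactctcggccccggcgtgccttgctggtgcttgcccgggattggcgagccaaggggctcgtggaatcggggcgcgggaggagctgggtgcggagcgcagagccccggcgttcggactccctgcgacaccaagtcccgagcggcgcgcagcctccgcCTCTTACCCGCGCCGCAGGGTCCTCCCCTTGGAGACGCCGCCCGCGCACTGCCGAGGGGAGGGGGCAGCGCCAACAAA
Col4a2: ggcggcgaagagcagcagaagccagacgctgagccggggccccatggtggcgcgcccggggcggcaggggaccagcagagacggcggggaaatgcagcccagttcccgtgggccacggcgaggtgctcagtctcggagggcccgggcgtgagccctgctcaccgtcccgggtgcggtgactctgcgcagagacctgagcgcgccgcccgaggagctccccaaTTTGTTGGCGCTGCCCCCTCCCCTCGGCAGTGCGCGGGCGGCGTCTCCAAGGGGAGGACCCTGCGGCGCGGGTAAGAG
In RefSeq the start of Col4a1 is at position 11312826 and that of Col4a2 at 11312805, so that 22 bases lie in both transcripts on opposite strands. The Nextera XT kit named in the protocols does not mark strand, and reads within those bases cannot be assigned to either gene by strand.

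A group of 4 collagens carried nearly all of the family's RNA in these cells: Col4a1, Col4a2, Col18a1 (type 18, whose carboxy-terminal fragment is endostatin) and Col15a1 (type 15). Their means over the 20 libraries were 1220 CPM for Col4a1, 1009 CPM for Col4a2, 322 CPM for Col18a1 and 163 CPM for Col15a1, and no other collagen reached a mean of 10 CPM. Per length, these 4 genes held a median of 97.2% of the summed collagen TPM (abundance scaled by gene length and library), with a range over libraries of 73.8% to 99.2%, or 86.1% to 99.2% without the satellite-rich libraries. Ranked by TPM among the protein-coding genes of a library, Col4a1 had a median rank of 87 and Col18a1 of 317. The other 40 collagens stayed low: 32 of them never exceeded 20 CPM in a library, and the highest single value among them was 65.3 CPM, for Col6a1 in TCRKO_9766.

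**Figure D1:**
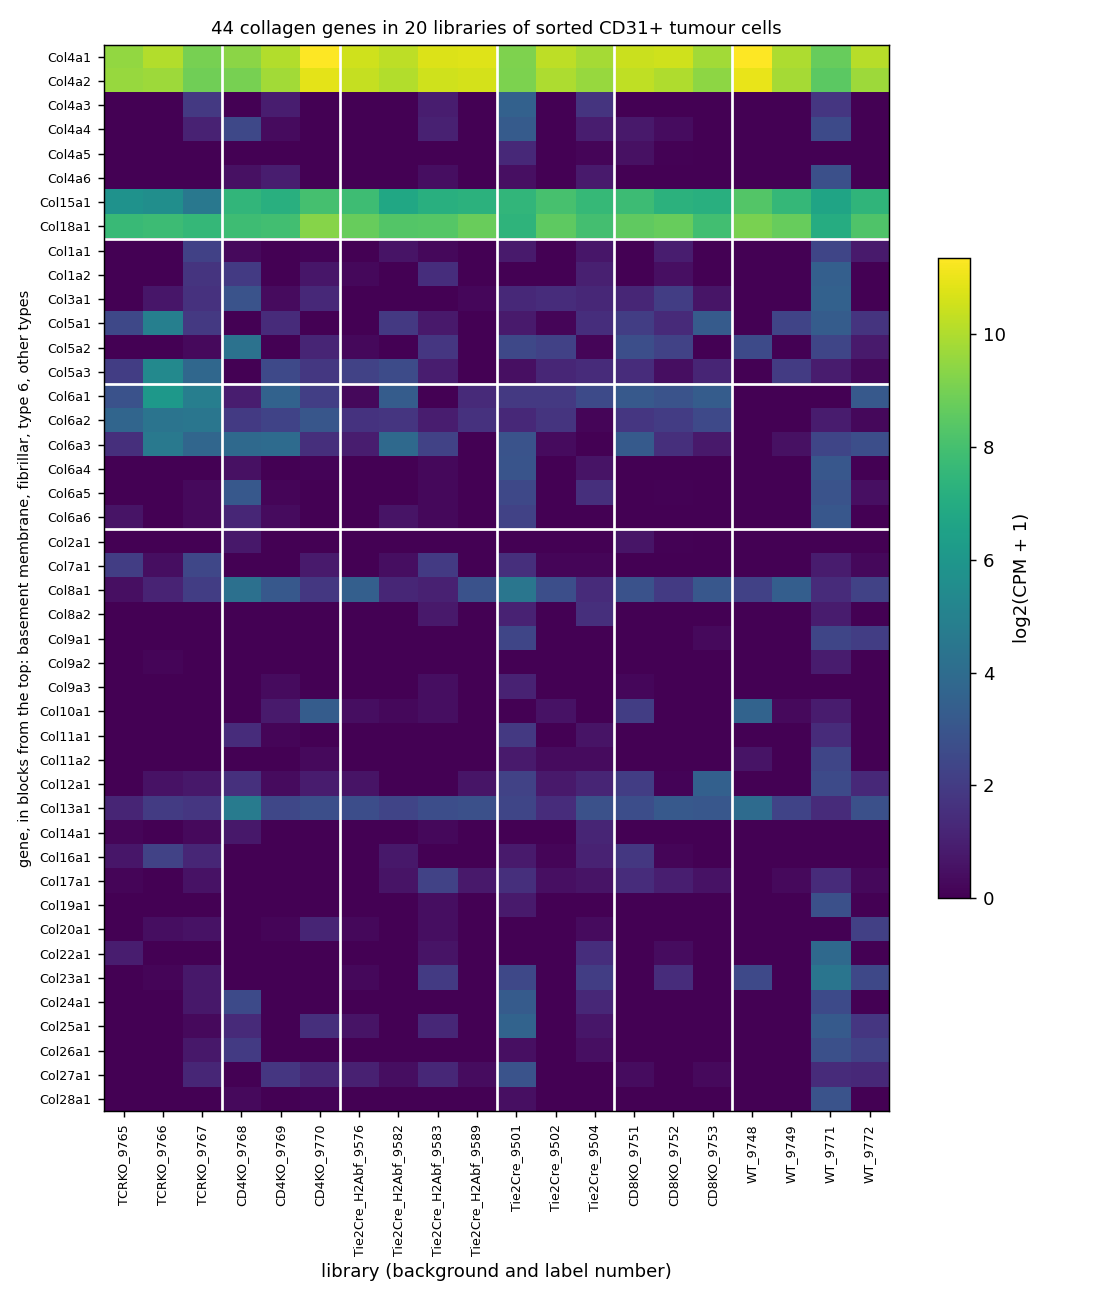
Level of each of the 44 collagen genes (vertical axis, in blocks by type class) in each of the 20 libraries (horizontal axis, by background), as log2(CPM + 1). The 4 bright lines are Col4a1, Col4a2, Col15a1 and Col18a1; in WT_9771 and Tie2Cre_9501 many of the other genes have a low value, with 37 collagens detected in each.

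The other type 4 chains, Col4a3, Col4a4, Col4a5 and Col4a6, which serve specialised basement membranes such as that of the kidney glomerulus, were close to absent. They had 73, 82, 9 and 25 counts over all 20 libraries, and none exceeded 10.6 CPM in any library. Col4a5 and Col4a6 were too low to be tested.

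By type class, basement membrane collagens held a median of 97.2% of the summed collagen TPM of a library, all other types 1.14%, type 6 0.647% and the fibrillar types 0.389%. The basement membrane share was lowest in WT_9771 at 75.1%. Outside the satellite-rich libraries it was lowest in TCRKO_9767 at 86.6%, followed by CD4KO_9768 at 86.8% and TCRKO_9766 at 89.6%. Type 6 held 7.35% in TCRKO_9767, where other types held 3.92%, and 6.77% in TCRKO_9766. In CD4KO_9768 other types held 6.02%, the fibrillar types 5.16% and type 6 held 2.03%. By counts, the fibrillar and type 6 shares of CD4KO_9768 were close, at 1.65% and 1.57%. The highest type 6 share in any other library was 4.56%, in WT_9771.

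**Figure D2:**
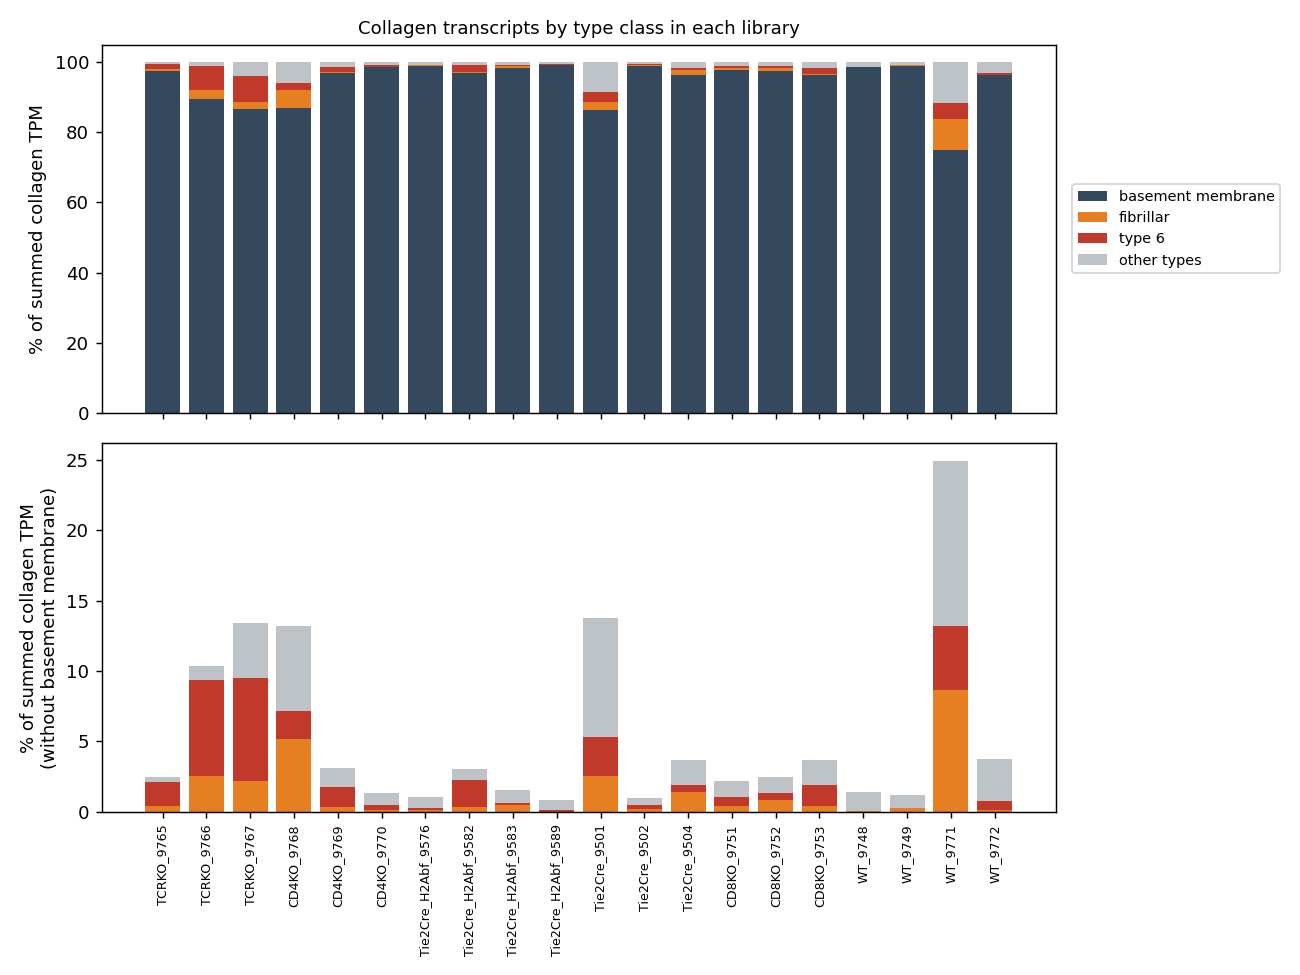
Share of each library's summed collagen TPM (vertical axis, %) by type class, for all 20 libraries (horizontal axis). The upper panel has all classes and the lower panel the same bars without the basement membrane types; type 6 holds 6.77% in TCRKO_9766 and 7.35% in TCRKO_9767, and WT_9771 has the largest remainder.

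Type 1 and type 3, the collagens of scar and tendon, were scarce. Col1a1 had 58 counts, Col1a2 71 and Col3a1 196 counts over the 20 libraries, and their highest values were 4.10, 9.85 and 10.7 CPM, each in WT_9771. Col3a1 had a count in 13 of 20 libraries and Col1a1 in 10. The fibroblast markers were mixed. Of 14 fibroblast genes (no collagen among them), Fn1 (fibronectin) had 82.0 to 2051 CPM over the 20 libraries and Mmp2 reached 38.5 CPM in a Tie2Cre library. All 14 had a count in CD4KO and in Tie2Cre, while Lum, Fbln1 and Mfap5 were at 0 in all TCRKO libraries, and Fbln1 and Fap were at 0 in all WT libraries. The 12 epithelial genes, markers that tumour cells could carry, summed to between 0.212 and 24.6 CPM per library, highest in Tie2Cre_9501; among them Epcam had 1 count in the Tie2Cre libraries and 0 elsewhere.

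Col4a1 and Col4a2 had similar levels in each library. Per length, Col4a1 over Col4a2 was 0.863 to 1.38 over the 20 libraries, with a median of 1.07. By counts it was 0.938 to 1.42, with a median of 1.18, and the order of libraries changed. WT_9748, lowest per length at 0.863, had 1.26 by counts. Per length, Col18a1 over Col4a1 ran between 0.251 and 0.570, with a median of 0.353. Col15a1 over Col4a1 was 0.0562 to 0.476, with a median of 0.193, the widest range of the 3 relative to its median. These ratios are taken within a library and do not depend on its scaling factor.

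Col4a1 varied within backgrounds as well as between them. It had 736, 1049.2 and 517 CPM in TCRKO libraries, 667, 1049.9 and 2620.4 CPM in CD4KO libraries, and 1494, 1202, 1737 and 1765 CPM in Tie2Cre_H2Abf libraries. The values were 572, 1214 and 914 CPM in Tie2Cre libraries, 1409, 1462 and 892 CPM in the libraries labelled CD8KO, and 2564, 982, 418 and 1128 CPM in WT libraries. The spread within WT and within CD4KO was thus wider than the gap between the means of any 2 backgrounds. Ordered by mean, Tie2Cre_H2Abf (1550 ± 261 CPM, SD, n = 4), CD4KO (1446 ± 1035, n = 3), WT (1273 ± 914, n = 4), CD8KO (1254 ± 315, n = 3), Tie2Cre (900 ± 321, n = 3) and TCRKO (767 ± 268, n = 3) followed each other, and each pair of neighbours in this order overlapped. The first and the last did not: the lowest Tie2Cre_H2Abf library had 1202 CPM and the highest TCRKO library 1049.2 CPM. Col4a2 had the same backgrounds first and last, Tie2Cre_H2Abf with 1350 ± 217 CPM and TCRKO with 694 ± 190 CPM, and these did not overlap either (lowest 1066 CPM in Tie2Cre_H2Abf, highest 822 CPM in TCRKO). This pair of backgrounds was picked as the extremes of the order by mean and was not tested directly. How many other genes separate it was not counted. The 15 endothelial markers, summed, separated it too, with 3152 to 4754 CPM in TCRKO libraries and 6141 to 9461 CPM in Tie2Cre_H2Abf libraries. The part of these markers in the gap was not tested. The series of label numbers also differs between these backgrounds and cannot be told apart from the background.

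**Figure D3:**
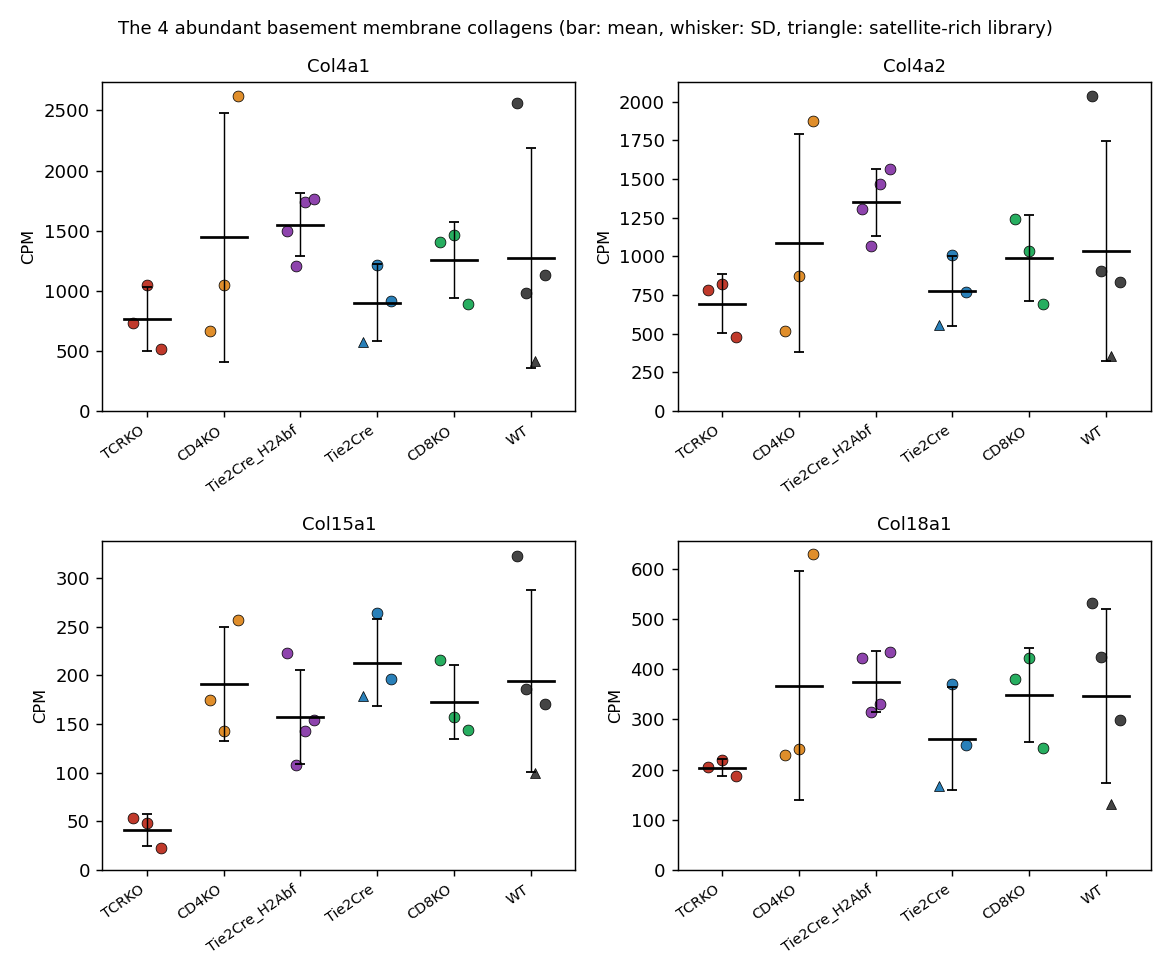
CPM (vertical axis, from 0) of the 4 abundant basement membrane collagens in the 20 libraries, by background (horizontal axis). Points are libraries (triangles: the satellite-rich WT_9771 and Tie2Cre_9501), bars are means and whiskers 1 SD; Col15a1 is at 22.7 to 53.5 CPM in TCRKO and at 99.3 CPM or more in every other library.

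A test across all backgrounds asked whether any of the tested collagens varied among the 6. Of the 44 genes, 30 passed the filter on low counts and 14 did not (the highest of those 14 reached 14.0 CPM in a single library). In edgeR's quasi-likelihood test with Benjamini-Hochberg adjustment over 14875 genes, 0 of the 30 passed the adjusted threshold of 0.05 (background over all genes 0.0605%), 6 had an unadjusted p under 0.05 (background 9.34%), and DESeq2 called 2 (of 334 genes it called in all). The smallest p among them belonged to Col6a2 (edgeR adjusted p = 0.0822) and Col15a1 (edgeR adjusted p = 0.194).

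TCRKO against WT was the comparison in which a collagen passed. The label TCRKO names a knockout of the T cell receptor, and the comparison asked how the collagens of these sorted cells differed from those of WT hosts. The gene that passed was Col6a2, the alpha 2 chain of type 6. It had 12.1, 19.6 and 20.7 CPM in TCRKO libraries (354 counts), against 0, 0, 0.821 and 0.189 CPM in WT libraries (2 counts). The WT libraries at 0, WT_9748 and WT_9749, held a count for 10 and 11 collagens, the fewest of any library. They also detected the fewest fibroblast genes (4 and 3 of 14) and mural genes (4 and 5 of 12). The part of this low detection of scarce genes in the result was not tested. The ratio of summed counts per effective library size was 146 (exact 95% Poisson interval 40.1 to 1209, counting error only), and Col6a2 rose with an edgeR adjusted p of 0.0339. All 3 TCRKO libraries were above every one of the 17 other libraries, of which CD4KO_9770 was highest with 7.10 CPM. The call was lost when the fit was limited to TCRKO and WT (edgeR adjusted p = 0.396) and without any of TCRKO_9765, TCRKO_9766, TCRKO_9767, WT_9748 or WT_9749 (adjusted p = 0.146 to 0.324).

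Col6a2 was 1 of 30 tested collagens to pass (background 0.0269%). At an unadjusted p under 0.05 there were 8 of 30 (background 8.65%): 4 higher in TCRKO (background 3.99%), namely Col6a2, Col6a1, Col5a3 and Col16a1, and 4 lower (background 4.66%), namely Col15a1, Col5a2, Col9a1 and Col10a1. The median log2 fold change of the 30 was -1.52, or -1.39 with 12 genes of 3 counts or fewer in a group set to their count ratio or bound, against -0.20 for all tested genes. With RLE factors the median of all genes was -0.32, so that changes here are relative to a shift of that size. By class, 3 of 5 tested type 6 genes were higher and 2 lower, 3 of 6 fibrillar genes were on each side, and 5 of 6 basement membrane genes were lower. Over all tested genes, 8426 of 14875 were lower. The 5 were the 4 abundant genes and Col4a4, which had 5 counts in TCRKO and 6 in WT, all 6 in the satellite-rich WT_9771.

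The 2 partner chains of Col6a2 in the type 6 trimer, Col6a1 and Col6a3, did not pass. Col6a1 had 6.28, 65.3 and 27.96 CPM in TCRKO libraries, against 0, 0, 0 and 8.14 CPM in WT libraries, a log2 fold change of 3.90 ± 1.37 (SE; edgeR adjusted p = 0.506). The groups overlapped through WT_9772, and without that library Col6a1 passed (edgeR adjusted p = 0.0454), as it did with no filter on low counts (edgeR adjusted p = 0.0303). Col6a3 had 1.85, 22.9 and 12.5 CPM in TCRKO libraries, against 0, 0.425, 4.10 and 5.68 CPM in WT libraries (2.34 ± 1.48, edgeR adjusted p = 0.641). TCRKO_9766 was highest for both chains and TCRKO_9765 lowest.

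The type 5 chains, which trim the diameter of collagen fibrils, were mixed. Col5a3 had 3.20, 39.9 and 13.0 CPM in TCRKO libraries, against 0, 2.97, 0.821 and 0.189 CPM in WT libraries. Its groups did not overlap, and its log2 fold change was 4.21 ± 1.43 without passing (edgeR adjusted p = 0.489). Col5a1 had 4.56, 28.7 and 2.73 CPM in TCRKO libraries, against 0, 4.04, 9.03 and 2.27 CPM in WT libraries, and the groups overlapped (1.72 ± 1.49, edgeR adjusted p = 0.758). Col5a2 was low, with 1 count summed over TCRKO and 38 over WT.

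Markers of the cell types known for type 6 were read beside these values. The 12 mural genes, summed, had 31.1 to 40.9 CPM in TCRKO libraries, against 34.1 to 75.6 CPM in WT libraries, and Higd1b and Cnn1 were at 0 in TCRKO. Pdgfrb, the receptor of pericytes, had 49 counts in TCRKO and 1 in WT. The list went mostly the other way: of 9 mural genes tested, 2 were higher in TCRKO, 7 lower and 0 past the threshold (median log2 fold change -2.06). The 14 fibroblast genes had 237 to 412 CPM in TCRKO libraries, against 260 to 722 CPM in WT libraries, most of it Fn1. Without Fn1, left out after its value was seen, the other 13 had 18.3 to 22.0 CPM in TCRKO libraries (median 18.4). In WT libraries they had 1.06 to 33.6 CPM (median 7.16), highest in the satellite-rich WT_9771. Of the 14 fibroblast genes 9 were tested, with 6 higher in TCRKO, 3 lower and 0 past the threshold (median log2 fold change 1.22). The 15 endothelial markers had 3152 to 4754 CPM in TCRKO libraries, against 2728 to 5991 CPM in WT libraries. The 12 macrophage genes had 293 to 726 CPM in TCRKO libraries, against 269 to 776 CPM in WT libraries. The 12 epithelial genes had 8.13 to 18.2 CPM in TCRKO libraries, against 0.212 to 18.9 CPM in WT libraries. Epcam was at 0 in both, and Krt8 had 169 counts in TCRKO and 3 in WT. Of the 12 epithelial genes 4 were tested, with 1 higher in TCRKO, 3 lower and 0 past the threshold (median log2 fold change -0.73). The part of these markers in the result was not tested.

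Col15a1 was the abundant collagen that stood lowest in TCRKO. It had 53.5, 47.9 and 22.7 CPM in TCRKO libraries, against 323, 186, 99.3 and 170 CPM in WT libraries. The groups did not overlap, and the TCRKO libraries were also below all 13 libraries of the other backgrounds, whose lowest value was 108 CPM in Tie2Cre_H2Abf_9582. The mean was 41.4 ± 16.4 CPM in TCRKO and 195 ± 93.4 CPM in WT (SD, n = 3 and 4). The log2 fold change was -2.23 ± 0.43, just outside the threshold (edgeR adjusted p = 0.0621). It passed with RLE factors (adjusted p = 0.0119), in DESeq2 (1.1e-08, with 197 genes called in all against 4 in edgeR), with a filter of 5 CPM in 10 libraries (0.00487), without the satellite-rich libraries (0.00903), without WT_9771 (0.0141) and without WT_9772 (0.0454). Under the other settings it did not pass, with adjusted p-values up to 0.581 (without TCRKO_9767), and its log2 fold change was between -2.45 and -1.88 throughout.

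Within a library the same gene was low against its partners. Col15a1 over Col4a1 in TPM was 0.104, 0.0662 and 0.0562 in TCRKO libraries, against 0.188, 0.264, 0.444 and 0.185 in WT libraries, and the lowest of the 17 libraries outside TCRKO had 0.116 (Tie2Cre_H2Abf_9583). Col15a1 over Col18a1 was 0.294, 0.258 and 0.122 in TCRKO libraries, against 0.684, 0.464, 1.08 and 0.578 in WT libraries. Both ratios share the Col15a1 values with the comparison above and are given as a description.

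The other 3 abundant genes had smaller differences that did not pass. Col4a1 had a log2 fold change of -0.73 ± 0.47 (edgeR adjusted p = 0.652), and without WT_9748, the WT library with the highest Col4a1, it was -0.13. Col4a2 had -0.58 ± 0.45 (edgeR adjusted p = 0.725). Col18a1 had 206, 219 and 187 CPM in TCRKO libraries, against 532, 424, 130 and 300 CPM in WT libraries (-0.77 ± 0.42, edgeR adjusted p = 0.599). For all 3 the satellite-rich WT_9771 was the lowest of the WT libraries.

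**Figure D4:**
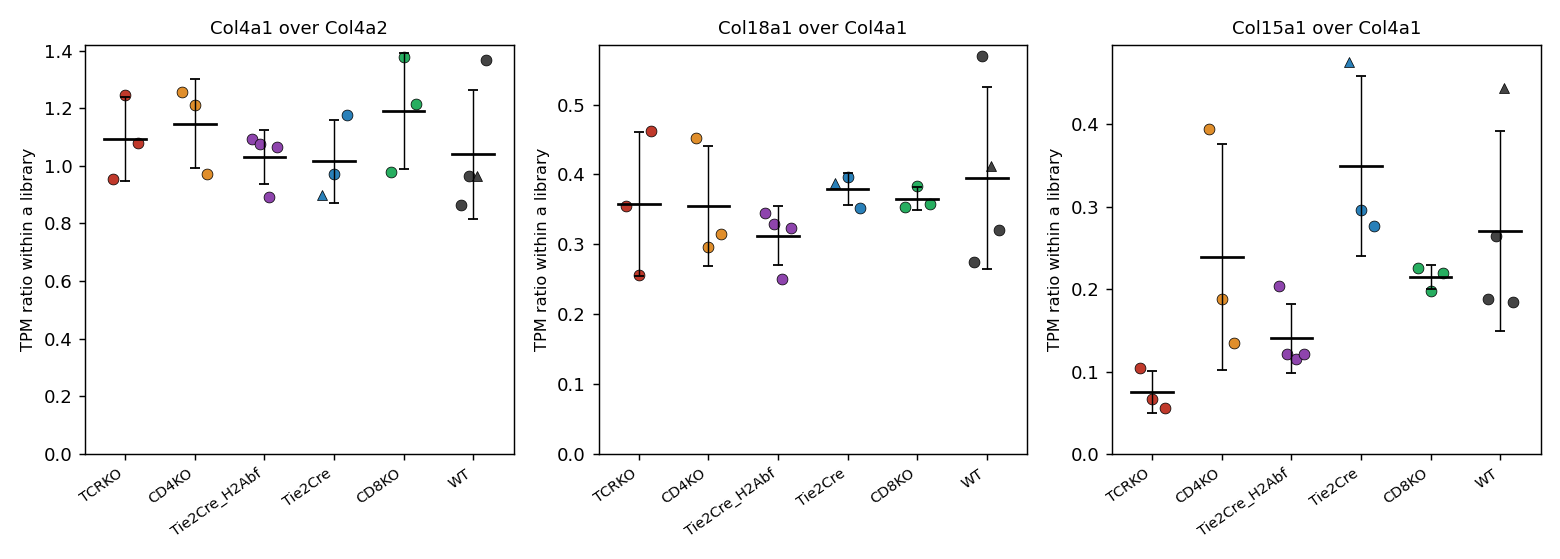
TPM ratios within a library (vertical axes, from 0) of Col4a1 over Col4a2, Col18a1 over Col4a1 and Col15a1 over Col4a1, by background (horizontal axis). Points are libraries (triangles: satellite-rich), bars means and whiskers 1 SD; Col4a1 over Col4a2 stays between 0.863 and 1.38, and Col15a1 over Col4a1 is at most 0.104 in TCRKO and at least 0.116 elsewhere.

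The promoter windows of Col15a1 and Col6a2, the collagens with the smallest p-values in TCRKO against WT, were searched on both strands for 4 motifs: CCAAT (the CCAAT box), GGGCGG (the GC box), TATAAA (the TATA box) and TTCNNNGAA (the gamma-activated site of STAT factors). Capitals mark matches. The Col15a1 window, chr4:47207762-47208061 on the plus strand, has none of the 4. The Col6a2 window, chr10:76623581-76623880 on the minus strand, has 1 GC box, and a second RefSeq window of that gene, chr10:76623355-76623654 on the same strand, has 3 (not printed).
Col15a1: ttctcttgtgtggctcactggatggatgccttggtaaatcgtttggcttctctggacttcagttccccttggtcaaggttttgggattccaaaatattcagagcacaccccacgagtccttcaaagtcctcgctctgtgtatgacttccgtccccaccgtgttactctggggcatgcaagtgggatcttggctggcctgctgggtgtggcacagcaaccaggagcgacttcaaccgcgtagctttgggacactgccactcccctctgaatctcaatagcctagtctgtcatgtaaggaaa
Col6a2: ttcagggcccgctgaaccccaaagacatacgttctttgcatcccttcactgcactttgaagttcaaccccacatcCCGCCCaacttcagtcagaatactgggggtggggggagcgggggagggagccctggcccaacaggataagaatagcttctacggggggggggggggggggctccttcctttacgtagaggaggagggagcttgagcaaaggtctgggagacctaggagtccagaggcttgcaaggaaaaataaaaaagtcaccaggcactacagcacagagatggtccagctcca
A window was found for 35 of the 44 collagens, 38 windows in all. GGGCGG occurred in 60.5% of the collagen windows, against 35.7% of all 32851 windows in the table. CCAAT occurred in 34.2% of the collagen windows and 37.4% of all, TATAAA in 13.2% and 13.6%, and TTCNNNGAA in 5.26% and 8.30%. These are matches of letters and say nothing of binding.

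CD4KO against WT showed no collagen past the threshold. By edgeR's quasi-likelihood test 0 of 30 passed (background 0%), 4 had an unadjusted p under 0.05 (background 8.58%), 1 higher (background 4.03%) and 3 lower (background 4.55%), and DESeq2 called 1, Col6a2 (of 113 genes in all). Col6a2 had 2.84, 3.84 and 7.10 CPM in CD4KO libraries (139 counts), against the 2 counts of the WT libraries given above, a ratio of 46.3 (exact 95% Poisson interval 12.6 to 386; edgeR adjusted p = 0.549). Col23a1, a membrane-spanning collagen, had the second smallest p: it had 0 counts in CD4KO and 77 in WT, at least 38.5-fold lower against a floor of 3 counts over the group (edgeR adjusted p = 0.573). In WT its highest value was in WT_9771, with 20.5 CPM. Col15a1 had 175, 143 and 257 CPM in CD4KO libraries, within the range of WT (-0.03 ± 0.40, edgeR adjusted p = 0.997).

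CD4KO_9768 differed from the other CD4KO libraries in its minor collagens. It had 18.6 CPM of Col5a2, against 0 and 1.26 CPM in the other CD4KO libraries, and 25.3 CPM of Col13a1, a transmembrane collagen of cell junctions, against 4.35 and 5.62 CPM. Its Col6a1 was 0.873 CPM, the lowest of the 3.

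The libraries labelled CD8KO were compared with WT next, and both are classed as competent. Again 0 of 30 collagens passed in edgeR (background 0%), 6 had an unadjusted p under 0.05 (background 10.5%), 2 higher (background 2.57%) and 4 lower (background 7.97%), and DESeq2 called Col6a2 (of 99 genes in all). This gene had 2.45, 3.07 and 4.64 CPM in the libraries labelled CD8KO (129 counts), and its ratio to the 2 WT counts was 28.5 (exact 95% Poisson interval 7.74 to 238; edgeR adjusted p = 0.465). Col25a1, a transmembrane collagen of neurons, had 0 counts in the libraries labelled CD8KO and 23 in WT, 13 of them in WT_9772 and 10 in the satellite-rich WT_9771 (edgeR adjusted p = 0.465). The 4 abundant basement membrane genes differed by -0.18 to 0.01 on the log2 scale.

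TCRKO, CD4KO, the libraries labelled CD8KO and Tie2Cre were all set against the same 4 WT libraries, so the 2 Col6a2 counts of WT enter each of these ratios. Tie2Cre libraries had 1.51, 2.32 and 0.126 CPM of Col6a2, and the ratio of their 24 counts to WT was 11.02 (exact 95% Poisson interval 2.74 to 96.2; edgeR adjusted p = 0.676). Tie2Cre_H2Abf libraries had 2.12, 2.37, 0.890 and 2.03 CPM. WT was thus the lowest of the 6 backgrounds by mean and TCRKO the highest, and the 4 others lay between 1.32 and 4.59 CPM.

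In Tie2Cre against WT 0 of 30 collagens passed in edgeR (background 0%), 2 had an unadjusted p under 0.05 (background 6.85%), 2 higher (background 3.97%) and 0 lower (background 2.88%), and DESeq2 called 0. They were Col6a2 and Col16a1, a minor collagen that attaches to fibrils, with 12 counts in Tie2Cre, 9 of them in Tie2Cre_9504, and 0 in WT (edgeR adjusted p = 0.723). Tie2Cre libraries carry label numbers that begin with 95 and WT libraries numbers that begin with 97, and the background and this difference in numbering cannot be told apart.

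Tie2Cre_H2Abf against Tie2Cre asked what a loss of the class II gene H2-Ab in Tie2 lineage cells changes, with the Cre in both groups. By edgeR 0 of 30 collagens passed (background 0.0202%), 4 had an unadjusted p under 0.05 (background 8.54%), 0 higher (background 2.69%) and 4 lower (background 5.86%), and DESeq2 called 0. The smallest p values were those of Col24a1, a minor fibrillar collagen with 0 counts in Tie2Cre_H2Abf and 34 in Tie2Cre, of which 23 were in the satellite-rich Tie2Cre_9501 (edgeR adjusted p = 0.576), and Col3a1, with 1 count in Tie2Cre_H2Abf and 29 in Tie2Cre (ratio 0.0269, exact 95% Poisson interval 0.000659 to 0.162; edgeR adjusted p = 0.576). The type 4 chains were on the higher side. Col4a2 had 1304, 1066, 1467 and 1562 CPM in Tie2Cre_H2Abf libraries, against 555, 1006 and 772 CPM in Tie2Cre libraries. These groups did not overlap, and the log2 fold change was 0.80 ± 0.45 (edgeR adjusted p = 0.614). Col4a1 gave 0.78 ± 0.47 (edgeR adjusted p = 0.642), Col18a1 0.52 ± 0.42 (edgeR adjusted p = 0.747) and Col15a1 -0.44 ± 0.40 (edgeR adjusted p = 0.776). The 15 endothelial markers were also on the higher side, with 6141 to 9461 CPM in Tie2Cre_H2Abf libraries, against 4088 to 7689 CPM in Tie2Cre libraries; their part in the result was not tested.

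TCRKO and Tie2Cre_H2Abf are both classed as CD4-deficient, and their effects, each against its own control, were compared directly. The difference was the Tie2Cre_H2Abf effect minus the TCRKO effect. By edgeR 0 of 30 collagens passed (background 0%), 8 had an unadjusted p under 0.05 (background 6.80%), 5 higher (background 3.04%) and 3 lower (background 3.76%), and DESeq2 called Col6a2 and Col15a1 (of 89 genes in all). The 8 included all 4 abundant basement membrane genes. Their differences were 1.51 ± 0.67 for Col4a1, 1.37 ± 0.63 for Col4a2, 1.29 ± 0.60 for Col18a1 and 1.79 ± 0.57 for Col15a1 on the log2 scale (edgeR adjusted p = 0.671, 0.707, 0.711 and 0.548). For the type 4 and type 18 genes the TCRKO effect was negative and the Tie2Cre_H2Abf effect positive, while for Col15a1 both were negative. Without WT_9748 the differences were 0.92 for Col4a1, 0.80 for Col4a2, 1.00 for Col18a1 and 1.43 for Col15a1. Endothelial markers lay on the same side: 11 of 15 had a positive difference (median 0.61), and Cdh5 (1.08 ± 0.48, edgeR adjusted p = 0.681) and Kdr (1.26 ± 0.60, edgeR adjusted p = 0.727) had an unadjusted p under 0.05. Their part in these differences was not tested. Col6a2 had the smallest p (edgeR adjusted p = 0.244).

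Taken by CD4 status, the 10 deficient libraries were set against the 10 competent ones. Libraries of 3 backgrounds a side were taken as replicates here, so these p-values do not treat the background as the unit. In edgeR 0 of 30 collagens passed (background 0%), 5 had an unadjusted p under 0.05 (background 7.27%), 2 of them higher (background 1.90%) and 3 lower (background 5.37%), and DESeq2 called 0. Col9a1, a cartilage collagen, had 0 counts in deficient libraries and 35 in competent ones (edgeR adjusted p = 0.375), of which 17 were in WT_9772, 11 in Tie2Cre_9501, 5 in WT_9771 and 2 in CD8KO_9753. Col5a3 had a lowest, median and highest value of 0, 3.46 and 39.9 CPM in deficient libraries, against 0, 1.05 and 2.97 CPM in competent libraries (2.74 ± 0.87, edgeR adjusted p = 0.384). Col6a2 had 0.890, 3.34 and 20.7 CPM in deficient libraries, against 0, 1.17 and 4.64 CPM in competent libraries (2.22 ± 0.76, edgeR adjusted p = 0.437). The upper end of both genes came from the TCRKO libraries.

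None of the 4 abundant genes passed by CD4 status. Col4a1 had 517, 1126 and 2620 CPM in deficient libraries, against 418, 1055 and 2564 CPM in competent libraries (0.15 ± 0.29, edgeR adjusted p = 0.959), and Col18a1 had 187, 278 and 630 CPM, against 130, 335 and 532 CPM (-0.00 ± 0.26, edgeR adjusted p = 0.999). Col15a1 had 22.7, 143 and 257 CPM in deficient libraries, against 99.3, 183 and 323 CPM in competent libraries (-0.55 ± 0.32, edgeR adjusted p = 0.771). Within the libraries numbered from 97 on, TCRKO and CD4KO against CD8KO and WT, the log2 fold change was 3.32 for Col5a3 and 2.71 for Col6a2 (edgeR adjusted p = 0.999 for each).

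The genes that make, link, bind and cut collagen were read from lists chosen with the family. Of 29 genes of collagen synthesis (prolyl and lysyl hydroxylases, chaperones and propeptide proteases) 28 were tested, and in each of the comparisons 0 passed in either direction. In TCRKO against WT, 14 of the 28 were higher and 14 lower (median log2 fold change -0.02), with 0 higher (background 3.99%) and 1 lower (background 4.66%) at an unadjusted p under 0.05, a share near the background. That gene was P3h3, a prolyl 3-hydroxylase family member, with 0 to 0.238 CPM in TCRKO libraries, against 0.425 to 35.02 CPM in WT libraries (edgeR adjusted p = 0.337). Serpinh1, the collagen chaperone HSP47, had 282 to 510 CPM in TCRKO libraries, against 162 to 452 CPM in WT libraries.

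Of 7 cross-linking enzymes 6 were tested and 0 passed in any comparison. Loxl2, a lysyl oxidase that acts on type 4 collagen, had 81 counts in TCRKO, 406 in CD4KO, 176 in Tie2Cre and 193 in the libraries labelled CD8KO, against 4 in WT. Its log2 fold changes against those WT libraries were 3.54 ± 1.55 in TCRKO, 6.02 ± 1.60 in CD4KO, 4.40 ± 1.56 in Tie2Cre and 3.31 ± 1.54 in the libraries labelled CD8KO (edgeR adjusted p = 0.559, 0.573, 0.664 and 0.469). Tgm2, a transglutaminase, had 58.4 to 168 CPM in TCRKO libraries, against 128 to 529 CPM in WT libraries (-1.18 ± 0.55, edgeR adjusted p = 0.573). Of 14 collagen receptors 12 were tested and 0 passed, with 2 lower at an unadjusted p under 0.05 in TCRKO against WT (background 4.66%). Adgrg1 was one of them, with 63.7 to 77.1 CPM in TCRKO libraries, against 52.1 to 179 CPM in WT libraries. Of 10 collagen-cutting proteases 4 were tested, and 0 passed in any comparison; Mmp14, the membrane-bound one, had 57.1 to 109 CPM in TCRKO libraries, against 38.6 to 148 CPM in WT libraries.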

How the data were processed

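RNA-seq libraries of CD31-positive tumour cells were amplified with MATQ and prepared with Nextera XT, per the labels' protocols. The authors deposited 1 table per library with RSEM expected counts, TPM and effective lengths per gene, per the file headers. STAR, RSEM 1.2.28, bcl2fastq 2.17, DESeq2 and build GRCm38 are named in the submitters' processing notes. Symbols came from GENCODE M21 and matched 46488 of 46983 gene IDs. Expected counts were rounded (4.45% were not whole).

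Genes were kept with filterByExpr (14875, 30 of them collagens) and tested with edgeR 4.0.16 (R 4.3.3), using TMM factors, a model of 6 backgrounds (2 groups for CD4 status), robust quasi-likelihood fits and Benjamini-Hochberg adjustment at 0.05. The scripts were tested on simulated data. DESeq2 1.42.0, RLE factors, other filters, effective-length offsets and removal of libraries were alternatives. With 6 backgrounds, the biological coefficient of variation shared by all genes was 0.995. A fitted fold is not printed for a gene where a group had 3 counts or fewer in all. Such folds still enter the medians, unless a bound is named, and the numbers of genes higher and lower. Count ratios have exact 95% Poisson intervals, which cover counting error only, and 3 counts equal 0.128 CPM in CD8KO_9752 and 2.46 CPM in WT_9771.

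The members and gene lists were chosen with earlier results of these data known. Named were members of types 1, 3, 4, 5, 6, 15 and 18, members with a mean of at least 10 CPM, those past the threshold, the 2 with the smallest p in each comparison, and up to 3 genes per list by p. Col13a1, Serpinh1, Mmp14 and the genes counted by name at an unadjusted p were also named after their values were seen. Promoter windows are RefSeq's, build GRCm38.p6.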

Additional observations from a re-analysis of the deposited data

Results flagged for a closer look

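Groups of 4 to 10 libraries were searched by Dixon's criterion for a library whose gap to its nearest neighbour was large for the group's range. Such a library was found in 17 of 64 groups, over 16 quantities. Chance meets the criterion in about 1 of 20 groups when values are normally distributed. The CPM of scarce genes are skewed, with many libraries lacking a count, so that rate need not hold here. The 17 of 64 groups are therefore a description and cannot show an excess over chance. The quantities share libraries and are not independent.

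Among the 10 deficient libraries, TCRKO_9766 was far above the rest for Col6a1 (65.3 CPM, next 27.96), Col5a1 (28.7 CPM, next 4.56) and Col5a3 (39.9 CPM, next 13.0). CD4KO_9768 was far above the other deficient libraries for Col5a2 (18.6 CPM, next 2.49), Col13a1 (25.3 CPM, next 5.93) and Col15a1 over Col4a1 (0.395, next 0.203).

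Among the 10 competent libraries, WT_9748 was far above the rest for Col4a1 (2564 CPM, next 1462), Col4a2 (2039 CPM, next 1242) and Col13a1 (14.6 CPM, next 7.90). The satellite-rich Tie2Cre_9501 was highest for Col8a1 (20.8 CPM, next 9.56). WT_9749 had the highest Col18a1 over Col4a1 (0.570, next 0.413). The satellite-rich WT_9771 had the lowest basement membrane share, 75.1%, with 86.3% next among competent libraries and 96.3% next among WT libraries.

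Within single backgrounds, WT_9772 had 8.14 CPM of Col6a1 where the other WT libraries had 0. Tie2Cre_H2Abf_9583 had 2.49 CPM of Col5a2, with 0.177 CPM next, and a Col4a1 over Col4a2 in TPM of 0.891, with 1.07 next. By counts the latter did not hold: this library had the highest ratio of its background, 1.18, and the lowest was 1.13. Tie2Cre_H2Abf_9576 had a Col15a1 over Col4a1 of 0.203, with 0.122 next.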

How the results depend on the processing

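No paired analysis was possible because each library number is used once and none is shared between backgrounds. The number of collagens past the threshold in TCRKO against WT, 1 in edgeR, was 2 with RLE factors, 2 in DESeq2, 2 with no filter on low counts, 2 without the satellite-rich libraries and 0 with only the groups compared. Leaving out 1 library gave 0 to 3: 0 without any TCRKO library, WT_9748 or WT_9749, 2 without WT_9771 and 3 without WT_9772. Over the 6 backgrounds the count, 0 in edgeR, was 2 in DESeq2, 3 with no filter, 1 with at least 5 CPM in 10 libraries, 2 without the satellite-rich libraries, and 0 to 1 with 1 library left out (1 without WT_9771). DESeq2 called 1 collagen in CD4KO against WT, 1 in CD8KO against WT and 2 for the difference of effects, where edgeR called 0. Over all genes, the calls in TCRKO against WT were 4 in edgeR, 197 in DESeq2, 31 with no filter and 15 without the satellite-rich libraries. With at least 5 CPM in 10 libraries, Col6a2 was filtered out and Col15a1 passed. Tie2Cre_H2Abf against Tie2Cre, Tie2Cre against WT and CD4 status gave 0 collagens under every alternative run. Direction was followed for fitted folds with an unadjusted p under 0.05 or among the 2 smallest p of a comparison. For the 4 abundant genes it was also followed in TCRKO against WT, Tie2Cre_H2Abf against Tie2Cre and the difference of effects. None of these folds changed direction. Other folds, some of them near 0, were not followed, and the cause of the changes in calls was not tested. The median type shares moved by less than 1 SD. Most collagens had few counts, which limits what could be detected for them.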
